A study of Mus musculus with 6 samples.

Results

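The Pax genes encode transcription factors that bind DNA through a paired domain, and the mouse genome holds 9 of them, *Pax1* to *Pax9*, out of the 53657 gene names counted in each library. The family was selected on the measured difference of *Pax7* between the genotypes, so the values of *Pax7* are given below as a description without a test, and the question put to the data was whether any of the other 8 members followed it. RNA had been sequenced from undifferentiated spermatogonia (Aundiff) of 6 adult mice, each giving 1 library, 3 months after repeated courses of tamoxifen. All 6 mice carried *Gfra1-creERT2*, a tamoxifen-inducible Cre recombinase driven by the promoter of the GDNF co-receptor gene *Gfra1*, and a *tdTom* fl/- reporter, on a mixed background of several strains. The 3 WT mice were wild type at *Hras*, and the 3 MUT mice also carried *FR-Hras G12V* fl/-, in which Cre replaces a wild-type allele by the activated G12V allele under the gene's own promoter. Recombination in this model is mosaic across the testis, and the cells were sorted as tdTomato+ and bright for the surface protein MCAM, where tdTomato marks cells in which Cre was active. The share of mutant transcripts was not measured from these counts. The libraries held between 22729292 and 23550433 counts, and 3 counts, the most that a count of 0 allows, corresponded to between 0.127 and 0.132 CPM (counts scaled to library size by the TMM method). The gene-level count of *Hras* does not separate the alleles and was 60.7 ± 4.21 CPM in WT and 66.7 ± 4.97 CPM in MUT (SD, n = 3 each). The sum of 10 markers of undifferentiated spermatogonia lay between 2875.7 and 3293.1 CPM in WT and between 2933.5 and 3270.3 CPM in MUT. The groups thus overlapped in this sum, of which *Dazl* (836.6 to 959.3 CPM) was the largest part. Markers of other cells were also present. The 6 spermatid markers summed to 869.0 to 1476.3 CPM in WT and 601.2 to 1147.1 CPM in MUT. The 6 macrophage markers summed to 659.3 to 1119.0 CPM in WT and 582.4 to 724.8 CPM in MUT. The purity of the sorted cells was not tested.

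Pax proteins fall into subgroups by the domains that they keep beside the paired domain: *Pax3* and *Pax7* have a full homeodomain, *Pax2*, *Pax5* and *Pax8* a partial one, *Pax4* and *Pax6* a homeodomain without the octapeptide, and *Pax1* and *Pax9* no homeodomain. Most are known as lineage regulators of embryonic tissues. *Pax7* is best known from the satellite cells of skeletal muscle, and in the testis it marks a rare subset of undifferentiated spermatogonia.

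Because the paralogs share the paired box, the reads of 1 member could resemble those of another. The 50 bases of *Pax7* coding sequence that were on average most alike over the other members lie in its paired box, in exon 2 of 9 (chr4:139830211-139830260, GRCm38, minus strand), and are printed first below from the GENCODE M21 transcripts. Each other line is the ungapped stretch of that member's coding sequence closest to it, 5′ to 3′, with bases that differ from *Pax7* in capitals.
Pax7: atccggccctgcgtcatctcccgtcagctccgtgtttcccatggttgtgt
Pax3: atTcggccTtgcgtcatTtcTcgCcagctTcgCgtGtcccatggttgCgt
Pax2: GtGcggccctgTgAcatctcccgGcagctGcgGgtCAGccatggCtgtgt
Pax5: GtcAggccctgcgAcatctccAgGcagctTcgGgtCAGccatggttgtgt
Pax8: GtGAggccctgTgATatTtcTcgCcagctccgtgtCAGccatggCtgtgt
Pax1: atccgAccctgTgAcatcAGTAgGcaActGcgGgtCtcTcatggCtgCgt
Pax9: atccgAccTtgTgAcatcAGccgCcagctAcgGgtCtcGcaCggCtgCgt
Pax4: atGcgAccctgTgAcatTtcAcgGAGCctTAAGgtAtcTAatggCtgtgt
Pax6: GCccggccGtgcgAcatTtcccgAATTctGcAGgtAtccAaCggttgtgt
*Pax3* had 41 of the 50 bases in common with *Pax7* here, *Pax5* 40, *Pax2* 39 and *Pax8* 37. *Pax9* shared 36 bases, *Pax1* and *Pax6* 35 each, and *Pax4* 32. Over whole transcripts, the longest unbroken run that *Pax7* shared was 26 bases with *Pax3* and 17 with *Pax9*, and between 12 and 14 with the other members. None of the 5858 different 50-base words of the *Pax7* transcripts occurred in a transcript of another Pax gene, and the libraries were read as 50 bases from each end. The closest 50-base coding window anywhere, in *Pax3*, still differed from *Pax7* at 4 positions (46 matches).

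*Pax7* and *Pax8* were the main Pax transcripts in these cells, and only *Pax7* stood apart between the genotypes in every library. *Pax7* (chr4:139737062-139833528, minus strand) had 114, 147 and 118 counts in WT replicates 1, 2 and 3, and 255, 252 and 219 counts in MUT replicates 1, 2 and 3. All MUT libraries lay above all WT libraries. Its level was 5.42 ± 0.749 CPM in WT and 10.5 ± 0.974 CPM in MUT (SD, n = 3 each), a log2 fold change of 0.95 with a standard error of 0.16. Paired by replicate number, the log2 difference was 1.15, 0.79 and 0.90. In bulk libraries of this kind, more cells that express *Pax7* and more *Pax7* RNA per cell cannot be told apart. Of all 19656 genes tested, 0.56% had a larger absolute log2 fold change, and the median over these genes was 0.0066. A difference of this direction in all libraries was not rare in the table, since 4.69% of the tested genes had every MUT library above every WT library. That share is a background for the value by which *Pax7* was chosen, and nothing is read from it here.

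**Figure D1:**
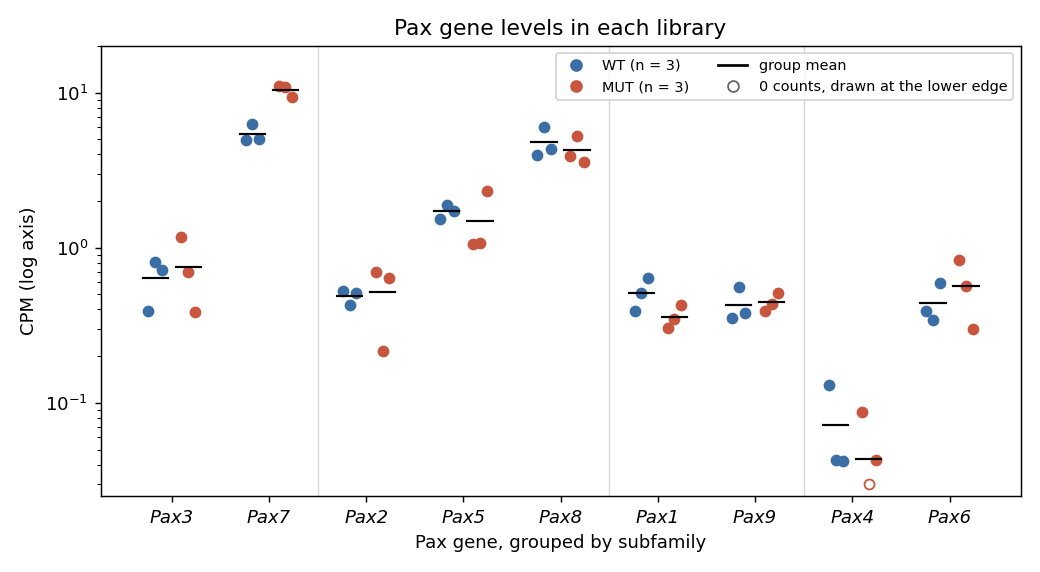
Level of each Pax gene in CPM (vertical log axis) in the 3 WT (blue) and 3 MUT (red) libraries, with the group mean as a black line; libraries with 0 counts are drawn open at the lower edge. *Pax7* lies at 4.98 to 6.28 CPM in WT and 9.36 to 11.1 CPM in MUT, while the WT and MUT points of every other member overlap.

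*Pax4* could not be measured, and few counts left wide intervals for *Pax2*, *Pax3* and *Pax6*. Within these limits, no difference between the genotypes was detected for any of the other 8 members. A filter on low counts kept 6 of them for the test, all but *Pax4* and *Pax9*, and edgeR's quasi-likelihood test (Benjamini-Hochberg adjustment over all genes) called 0 of the 6 at an FDR of 0.1, against 0.0102% of all genes tested (2 genes). Of those 2 genes, 0 were higher in MUT. That number depended on the method, at 1 of 9 called genes with DESeq2 and 1 of 13 with edgeR and the replicate number as a block. *Pax7* chose the family, so no call is read for it here. At an unadjusted p under 0.05 the count for the other members was again 0 of 6, against 2.78% of all genes tested. DESeq2, run without that filter, called 0 of the 8 where it called 0.0241% of all genes. The WT and MUT libraries overlapped for all 8, while 7.69% of the tested genes had groups that did not overlap in either direction. The log2 fold change was above 0 for 3 of the 6 and below 0 for 3. With the replicate number as a block, edgeR called 13 genes in place of 2, and again 0 of the 6 Pax genes tested.

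The member closest in sequence, *Pax3* (chr1:78101267-78197134, minus strand), a regulator of neural crest and muscle progenitors, was low in counts. It had 9, 19 and 17 counts in WT and 27, 16 and 9 counts in MUT. The highest and the lowest of the MUT libraries enclosed the WT libraries. Its level was 0.641 ± 0.22 CPM in WT and 0.753 ± 0.401 CPM in MUT (SD, n = 3 each), and the log2 fold change of 0.22 had a 95% confidence interval from -0.80 to 1.25 (edgeR's quasi-likelihood test, adjusted p = 0.998; exact two-sided permutation test, p = 0.9). That interval includes both no difference and the fold change of *Pax7*.

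Among the members with a partial homeodomain, *Pax8* was expressed at a level close to that of *Pax7* in WT and had a smaller difference between the genotypes. *Pax8* (chr2:24420560-24475599, minus strand), known for thyroid and kidney development, had 91, 140 and 103 counts in WT and 90, 122 and 84 counts in MUT. Replicate 2 was the highest in each group, and the groups overlapped. The level was 4.77 ± 1.07 CPM in WT and 4.27 ± 0.899 CPM in MUT (SD, n = 3 each). The log2 fold change of -0.16 had a 95% confidence interval from -0.67 to 0.36, which lies below the 0.95 of *Pax7* (edgeR's quasi-likelihood test, adjusted p = 0.998; exact two-sided permutation test, p = 0.5). The ratio of *Pax7* to *Pax8* counts was 1.25, 1.05 and 1.15 in WT and 2.83, 2.07 and 2.61 in MUT. A gene on the opposite strand, *RP23-264D16.1*, shares 367 exon bases with *Pax8* and had 1 to 6 counts per library. Fragments touching both genes were dropped, so they are missing from both counts.

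*Pax5* (chr4:44524757-44710487, minus strand), the factor that commits lymphocytes to the B lineage, was split among the MUT libraries. It had 35, 44 and 41 counts in WT and 24, 25 and 54 counts in MUT. MUT replicates 1 and 2 lay below every WT library and MUT replicate 3 above every WT library. The level was 1.71 ± 0.176 CPM in WT and 1.48 ± 0.717 CPM in MUT (SD, n = 3 each), with a log2 fold change of -0.21 and a 95% confidence interval from -0.96 to 0.54 (edgeR's quasi-likelihood test, adjusted p = 0.998; exact two-sided permutation test, p = 0.6). Without MUT replicate 3 the log2 fold change was -0.68. The sum of 8 B cell markers was 45.3, 61.2 and 73.0 CPM in WT and 35.3, 30.4 and 49.6 CPM in MUT, so it too was lower in MUT replicates 1 and 2 than in replicate 3, and its part in the *Pax5* values was not tested. A gene without a common symbol that lies on the opposite strand and shares 125 exon bases with *Pax5* had 36, 52 and 59 counts in WT and 12, 20 and 49 counts in MUT. Fragments were counted without strand, and those touching more than 1 gene were dropped, so in the shared bases fragments of *Pax5* and this gene cannot be told apart and are missing from the counts.

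*Pax2* (chr19:44756045-44837871, plus strand), required for the kidney and the genital ducts, had 12, 10 and 12 counts in WT and 16, 5 and 15 counts in MUT. MUT replicate 2 was below and the other MUT libraries were above the WT libraries. Its level was 0.486 ± 0.0518 CPM in WT and 0.519 ± 0.263 CPM in MUT (SD, n = 3 each), and the log2 fold change of 0.094 had a 95% confidence interval from -0.90 to 1.09 (edgeR's quasi-likelihood test, adjusted p = 0.998). The sum of 8 markers of rete testis and duct epithelium, where *Pax2* and *Pax8* are known to be expressed, was 5.46 to 6.38 CPM in WT and 3.69 to 5.42 CPM in MUT, with the duct gene *Lcn5* at 0 counts in all libraries. Its part in the values of these members was not tested.

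The members without a homeodomain were few in counts, and *Pax1* was lower in MUT within each pair of the same number. *Pax1* (chr2:147361925-147393295, plus strand), which patterns the vertebral column and thymus, had 9, 12 and 15 counts in WT and 7, 8 and 10 counts in MUT. Only MUT replicate 3 reached the range of WT. The level was 0.513 ± 0.12 CPM in WT and 0.36 ± 0.0618 CPM in MUT (SD, n = 3 each), with a log2 fold change of -0.51 and a 95% confidence interval from -1.30 to 0.29, opposite in direction to that of *Pax7* but not past the test (edgeR's quasi-likelihood test, unadjusted p = 0.183, adjusted p = 0.998; exact two-sided permutation test, p = 0.2, where 3 against 3 libraries cannot go below 0.1). *Pax9* (chr12:56691767-56712822, plus strand), needed for teeth and pharyngeal pouches, had 8, 13 and 9 counts in WT and 9, 10 and 12 counts in MUT. All MUT libraries lay within the range of WT, at 0.447 ± 0.0608 CPM against 0.429 ± 0.111 CPM (SD, n = 3 each). *Pax9* did not pass the filter, and in the fit without it the log2 fold change was 0.062 with a 95% confidence interval from -0.82 to 0.95. It shares 189 exon bases with *Slc25a21* on the opposite strand, which had 4 to 10 counts per library.

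In the last subgroup, *Pax6* (chr2:105668900-105697364, plus strand), the regulator of eye development, had 9, 8 and 14 counts in WT and 19, 13 and 7 counts in MUT. MUT replicate 1 was the highest library and MUT replicate 3 the lowest. Its level was 0.442 ± 0.132 CPM in WT and 0.564 ± 0.266 CPM in MUT (SD, n = 3 each), with a log2 fold change of 0.34 and a 95% confidence interval from -0.65 to 1.34 (edgeR's quasi-likelihood test, adjusted p = 0.998; exact two-sided permutation test, p = 0.7). *Pax4* (chr6:28442334-28449353, minus strand), a factor of pancreatic beta cells, had 3, 1 and 1 counts in WT and 2, 0 and 1 counts in MUT. Every library was at or under 3 counts, so a level of *Pax4* was not detectable at this depth and no fold change is given. The intervals of *Pax2*, *Pax3* and *Pax6* reached past the fold change of *Pax7*, so at 5 to 27 counts per library a difference as large as that of *Pax7* lay within them. For *Pax1*, *Pax5* and *Pax8* the upper limits of 0.29, 0.54 and 0.36 were below it. The fold change of *Pax7* chose the family and has its own 95% confidence interval, from 0.59 to 1.31. These comparisons with it are therefore descriptions.

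**Figure D2:**
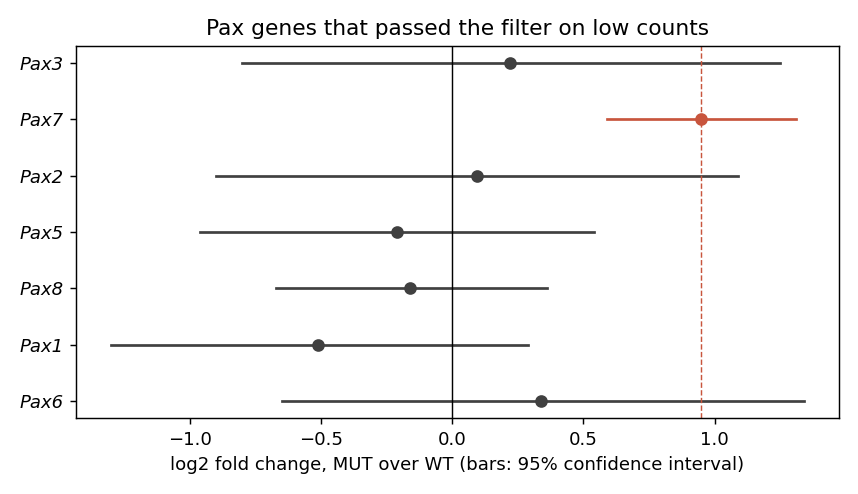
Log2 fold change of MUT over WT for the 7 Pax genes that passed the filter (points, horizontal axis) with 95% confidence intervals (bars); the dashed line marks the value of *Pax7*, 0.95. The intervals of the other 6 members all cross 0, and those of *Pax1*, *Pax5* and *Pax8* end below the dashed line.

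As levels are comparable between genes only per length, they were divided by the exon length in kb. The full exon length was used, including bases shared with other genes, where fragments were dropped. In WT, *Pax7* at 0.924 and *Pax8* at 0.787 CPM per kb were highest and their libraries overlapped. *Pax5* followed at 0.194 CPM per kb, apart from its neighbours on either side. The other 6 members lay between 0.0378 (*Pax6*) and 0.114 (*Pax1*) CPM per kb, each overlapping the next in the order. In MUT, *Pax7* at 1.79 CPM per kb no longer overlapped *Pax8* at 0.705 CPM per kb, and *Pax8* was again apart from *Pax5* at 0.167 CPM per kb. From *Pax5* down to *Pax4*, at 0.03 CPM per kb, neighbours in the order overlapped.

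The family as a whole changed in make-up through *Pax7*. The share of *Pax7* among all Pax counts was 39.3%, 37.3% and 35.8% in WT and 56.8%, 55.9% and 53.3% in MUT, which restates the difference by which it was chosen. The other 8 members together had 176, 247 and 212 counts in WT and 194, 199 and 192 counts in MUT. Scaled to the library, these sums were 7.69, 10.6 and 8.96 CPM in WT and 8.48, 8.63 and 8.21 CPM in MUT, so that the 3 MUT libraries lay inside the range of WT.

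**Figure D3:**
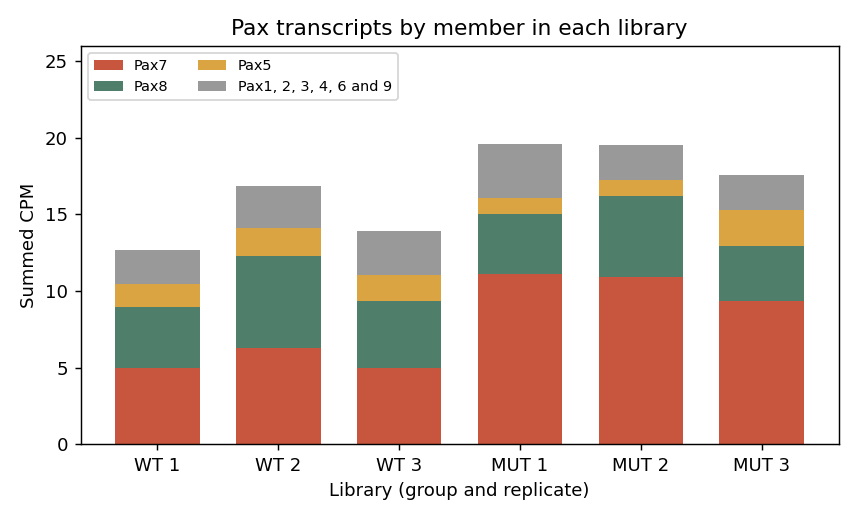
Summed CPM of the Pax genes in each library (stacked bars from 0), split into *Pax7*, *Pax8*, *Pax5* and the other 6 members. The red *Pax7* part is taller in each MUT library, and the remaining parts add up to 7.69 to 10.6 CPM in WT and 8.21 to 8.63 CPM in MUT.

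Over the 6 libraries, Pearson's correlation of log2 CPM with *Pax7* was -0.74 for *Pax1* and -0.46 for *Pax5*. It was -0.13 for *Pax2* and -0.078 for *Pax8*, and 0.27 to 0.34 for *Pax9*, *Pax6* and *Pax3*, and none is given for *Pax4* at its few counts. These are descriptions over n = 6 libraries that share the genotype difference and, within a gene, the same depth, and 5 of them changed sign when some library was left out (*Pax2*, *Pax3*, *Pax6*, *Pax8* and *Pax9*). Taken as deviations from the mean of each group, *Pax8* and *Pax7* had a correlation of 0.82 and *Pax3* and *Pax7* 0.73. The same value was 0.43 for *Pax9* and 0.22 for *Pax6*, and it was -0.27 for *Pax1*, -0.33 for *Pax2* and -0.42 for *Pax5*. In WT the highest library of *Pax7*, *Pax8* and *Pax3* alike was replicate 2, and in MUT the lowest was replicate 3 for each. Deviations within a group sum to 0, so fewer than 6 of them are free. Outside the family, 143 of 16680 genes (0.857%) had a correlation of at least 0.9 with *Pax7*. The 5 highest were *AC102121.3* (0.9879), *RP24-94N16.5* (0.9840), *Map3k6* (0.9831), *Smim22* (0.9828) and *Slc22a7* (0.9818). Of these, the kinase gene *Map3k6* was at 14.1 CPM in WT and 17.8 CPM in MUT, a log2 fold change of 0.34, and none of the 5 was called (edgeR's quasi-likelihood test, adjusted p = 0.998 for each).

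Near *Pax7* on chromosome 4, none of the tested genes passed the test. Within 500 kb of the gene lay 25 others, of which 10 were tested. Of the 10 tested, none was called (0.0102% over all genes tested) and none had an unadjusted p under 0.05 (2.78%). None of the 10 had groups that did not overlap (7.69%). At these shares 0 of 10 is not unusual, so nothing about the locus is read from it. The log2 fold changes of the 10 tested genes ran from -0.19 to 0.21 with a median of 0.027. On either side, the tested genes nearest to *Pax7* were *Aldh4a1*, a mitochondrial dehydrogenase gene 87372 bases away, at 15.9 CPM in both groups, and *Klhdc7a*, 126692 bases away on the other side, at 0.445 CPM in WT and 0.432 CPM in MUT.

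**Figure D4:**
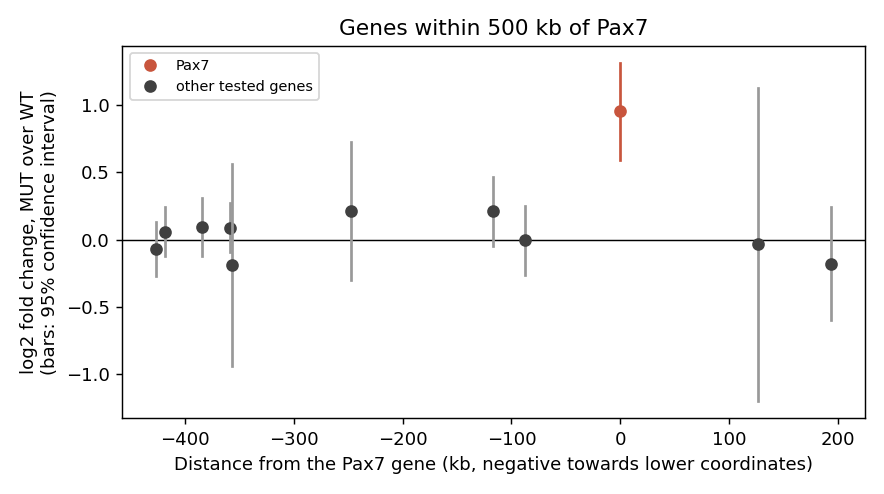
Log2 fold change of MUT over WT (vertical axis, bars for the 95% confidence interval) of the 10 tested genes within 500 kb of *Pax7*, by their distance from it in kb. All 10 intervals cross 0, and the points lie between -0.19 and 0.21, below the 0.95 of *Pax7*.

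Genes that act with or downstream of Pax proteins were read from the same fit over all genes, from lists that had been set with earlier results of these data known. In each of the 8 lists edgeR called 0 genes (0.0102% over all genes tested) and DESeq2 called 0 (0.0241%). With the replicate block edgeR also called 0 (13 of 19656 genes over all). At such low shares a short list would mostly hold no called gene, so nothing is read from these counts. Of 20 cofactors and chromatin partners of Pax proteins, 19 were tested and the median log2 fold change was 0.048. Of the 19, 0 had an unadjusted p under 0.05 (2.78% over all genes tested). Among those with the most counts were the histone methyltransferase genes *Kmt2c*, at 518.7 CPM in WT and 523.6 CPM in MUT, and *Kmt2b*, at 459.9 and 491.8 CPM. Of 12 genes that work in a network with Pax genes, the Eya and Dach genes among them, 8 were tested and the median was -0.0049. Of the 8, 0 had an unadjusted p under 0.05 (2.78% over all genes tested). *Eya3* was at 125.2 CPM in WT and 126.3 CPM in MUT, and *Six4* at 21.4 and 19.8 CPM.

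Of 12 muscle-lineage genes known downstream of *Pax3* and *Pax7*, 9 were tested, with a median of -0.036, and 2 had an unadjusted p under 0.05 (2.78% over all genes tested), both lower in MUT with groups that did not overlap (7.69% over all genes tested in either direction). *Dmrt2*, a transcription factor gene of the dermomyotome, had 22.0, 19.9 and 18.0 CPM in WT and 15.9, 12.1 and 14.1 CPM in MUT. The groups did not overlap, and the log2 fold change was -0.51 with a standard error of 0.14 (edgeR's quasi-likelihood test, unadjusted p = 0.00479, adjusted p = 0.998). *Spry1*, an inhibitor of receptor tyrosine kinase signalling, was at 23.2 ± 1.36 CPM in WT and 19.1 ± 1.4 CPM in MUT (SD, n = 3 each), a log2 fold change of -0.28. *Myf5*, the defining early gene of the muscle lineage, was at 0 counts in all 6 libraries, and the 8 markers of muscle and satellite cells summed to 15.9 to 18.0 CPM in WT and 16.7 to 19.0 CPM in MUT.

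Of 8 B-lymphocyte genes known downstream of *Pax5*, 6 were tested, with a median log2 fold change of 0.26, while that of *Pax5* itself was -0.21. *Cr2*, a complement receptor gene, had 8, 8 and 2 counts in WT and 13, 16 and 13 counts in MUT. All MUT libraries were above all WT libraries, and the log2 fold change of 1.22 had a standard error of 0.46 (edgeR's quasi-likelihood test, unadjusted p = 0.0281, adjusted p = 0.998). *Lef1*, which encodes a transcription factor of the Wnt pathway, was at 13.9 ± 0.301 CPM in WT and 18.3 ± 1.37 CPM in MUT (SD, n = 3 each), a log2 fold change of 0.40. It shares 1208 exon bases with a gene on the opposite strand that had 5 to 14 counts per library. The B cell marker sum given above had its lower values in MUT, and its part in these values was not tested.

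Of 10 kidney, thyroid and duct genes known downstream of *Pax2* and *Pax8*, 9 were tested, with a median of 0.14. Of these, 2 had every MUT library above every WT library (4.69% over all genes tested), and 1 had an unadjusted p under 0.05 (2.78%). The latter was *Wt1*, a zinc finger gene that is also a marker of Sertoli cells, at 10.6 ± 0.305 CPM in WT and 13.6 ± 2.57 CPM in MUT (SD, n = 3 each). The 8 Sertoli cell markers, *Wt1* among them, summed to 58.5 to 133.0 CPM in WT and 83.6 to 113.5 CPM in MUT. The largest part of this sum was *Clu*, at 33.9 to 102.7 CPM over the libraries. The Sertoli marker *Gata4* had 7.91, 8.25 and 8.92 CPM in WT and 9.27, 9.5 and 9.87 CPM in MUT. It thus had every MUT library above every WT library, while the groups overlapped for each remaining marker. The part of Sertoli cells in the *Wt1* values was not tested.

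Other homeobox genes of the paired-like class were compared as the nearest relatives outside the family. Of 42 such genes, 41 were in the files and 28 were tested, with a median log2 fold change of 0.10, and none was past the adjusted test.

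As *Pax7* is known as a mark of early spermatogonia, lists of stem-like and differentiating spermatogonia were set beside it. Of 18 stem-like genes, all tested, 14 had a log2 fold change below 0, where 51.8% of all genes tested were above 0, and the median was -0.18, while the log2 fold change of *Pax7* was 0.95. An unadjusted p under 0.05 (2.78% over all genes tested) was found for 2 of them, *Egr2*, a transcription factor gene, at 111.4 ± 5.77 CPM in WT and 90.6 ± 12.2 CPM in MUT (SD, n = 3 each), and *T* (brachyury) with a log2 fold change of -0.39, which is named because it completes the count. All 12 genes of differentiating spermatogonia had a log2 fold change above 0, with a median of 0.14, against 51.8% above 0 over all genes tested. Every MUT library was above every WT library for 5 of the 12 (4.69% over all genes tested), and 4 had an unadjusted p under 0.05 (2.78%). The latter were *Lin28a* with a log2 fold change of 0.26, *Stra8* with 0.28, *Rarg* with 0.20 and *Kit* with 0.36, of which *Kit* is again named to complete the count. None of the genes on these lists was past the adjusted test.

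**Figure D5:**
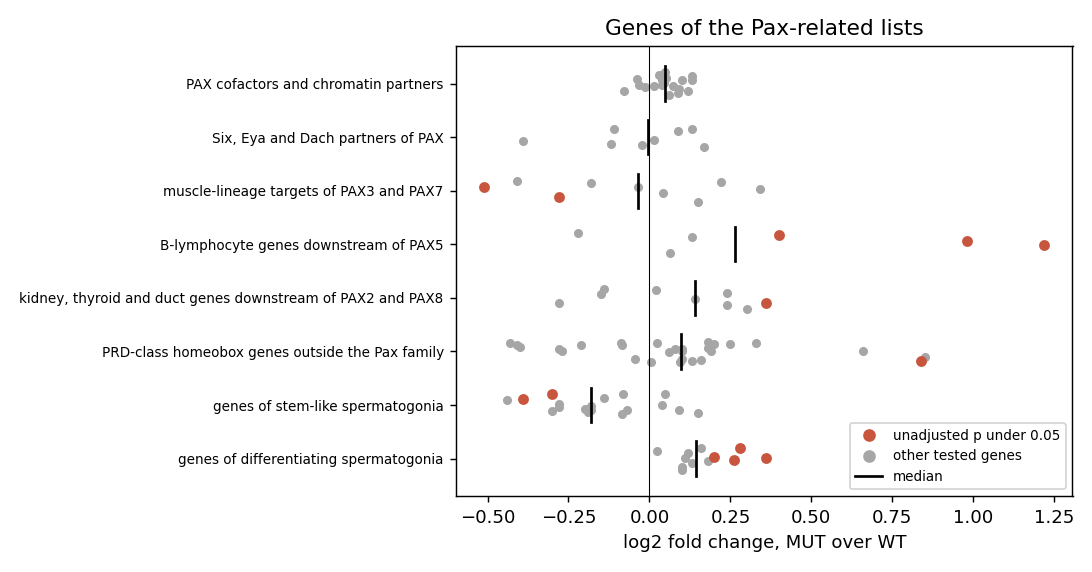
Log2 fold change of MUT over WT for each tested gene of the 8 Pax-related lists (points, horizontal axis), with unadjusted p under 0.05 in red and the list median as a black line. Medians run from -0.18 (stem-like spermatogonia) to 0.26 (B-lymphocyte genes), all below the 0.95 of *Pax7*.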

How the data were processed

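The RNA-seq libraries of 3 WT and 3 MUT mice were made with a stranded mRNA kit and read as 50 bases from each end. Per the file headers, the values that the authors deposited are unnormalized fragment counts, summed by gene name with featureCounts 1.6.2 over GENCODE exons of GRCm38.p6 and an entry for tdTomato. Strand was not used, and fragments that mapped to several places or touched several genes were dropped. The submitters' processing notes also name STAR. The groups and replicate numbers come from the labels.

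The counts were joined by gene name and analysed in R 4.3.3 with edgeR 4.0.16 (filterByExpr, TMM, quasi-likelihood test on genotype alone, Benjamini-Hochberg adjustment over all 19656 genes tested, FDR of 0.1). Exact permutation tests used the 20 assignments of the 6 libraries in scipy 1.17.1. Correlations were taken on log2 CPM (prior count 2), for the Pax genes whatever their level and for other genes with a mean of at least 1 CPM. The floor of 3 counts covers counting error only, and PCR duplicates were not separable.

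The Pax genes, gene lists and tests were chosen with earlier results of these data known. Beside the Pax genes, the text names from each list up to 3 genes with the largest fold change among those with an unadjusted p under 0.05 and groups that did not overlap, or the 2 with the highest CPM where there was none, then the 5 genes most like *Pax7*, genes that overlap a Pax gene, and the nearest tested neighbours of *Pax7*. Alternatives were DESeq2 1.42.0, voom of limma 3.58.1, DESeq2 size factors, other filters, a stricter FDR (0.05), a block for the replicate number, each library left out, a prior count of 0.5, deviations from group means and a window of 1 Mb. The labels number the replicates alike in both groups. Libraries of the same number deviated together from their group means, with correlations of 0.30, 0.16 and 0.40 over 10583 genes above 10 CPM, and WT replicate 2 with MUT replicate 1, of different numbers, had 0.33. These values do not settle whether the numbers pair the samples, and the sources used here do not say which mice were littermates. The main test used genotype alone, and the number was a block only in alternatives. The test script was tested on simulated counts with 200 changed genes. Sequences come from GENCODE M21 transcripts. The results for some listed genes are not reported here.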

Additional observations from a re-analysis of the deposited data

How the results depend on the processing

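Under each alternative, 0 of the other Pax genes and 0 of the listed genes that it could test were called. With at least 10 counts in every library only *Pax5* and *Pax8* of the other 8 could be tested. *Pax7* kept its direction under all 13 alternatives, with a log2 fold change between 0.89 and 1.06, and *Pax1* (-0.67 to -0.33) and *Pax5* (-0.68 to -0.021) kept theirs. With the replicate number as a block, edgeR gave *Pax7* 0.95 and changed no call among the Pax genes. The direction of *Pax2* turned with limma voom (-0.061) and DESeq2 with the block (-0.028), and ran from -0.18 to 0.45 when single libraries were left out, turning without WT replicate 2, MUT replicate 1 or MUT replicate 3. *Pax3* turned without WT replicate 1 or MUT replicate 1 (range -0.26 to 0.54), *Pax6* without MUT replicate 1 (-0.045 to 0.65) and *Pax8* without WT replicate 2 (-0.36 to 0.025). The cause was not tested. Over the whole table, 2 genes were called, which became 9 with DESeq2, 4 with voom, 5 with no filter, 0 with at least 10 counts in every library (479 at an unadjusted p under 0.05), 13 with edgeR and 55 with DESeq2 under the replicate block, 1 at an FDR of 0.05, and 0 to 6 when single libraries were left out. It was 0 without MUT replicate 2 and 6 without MUT replicate 3. At the depth of these libraries *Pax4* could not be measured.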
